A study of Mus musculus with 4 samples.

Results

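The genes of the heat shock proteins and of their DnaJ co-chaperones were followed in RNA of brain endothelial cells from newborn mice with and without the receptor PD-1 in the Tie2 lineage. A gene belonged to the set when its symbol in the deposited count tables began with Hspa, Hspb, Hspd, Hspe, Hsph or Hsp90, or with Dnaja, Dnajb or Dnajc, and did not mark a pseudogene. Of 21578 genes in the joined tables, 73 matched by name, 3 of them were pseudogenes, and 70 made up the set. These were 9 heat-inducible genes, 16 cytosolic genes classed as constitutive, 11 of the endoplasmic reticulum (ER) and 7 of mitochondria. The others were 5 classed by their symbols as small heat shock proteins, 2 divergent HSP70 genes and 20 J proteins with a specialised task.

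Both groups were C57BL/6 mice at postnatal day 0 that carried the floxed Pd1 allele. The control group was Pd1fl/fl and the other group was Pd1cKO-Tie2, in which Tie2-Cre deletes the floxed gene. Each genotype had 2 libraries, called replicate 1 and 2 after the columns of the tables, made from endothelial cells purified by flow cytometry, and nothing stated how many animals each library holds, so p-values measure only the spread between these libraries. Tie2-Cre also recombines in hematopoietic cells and some myeloid cells, which limits the model, and in bulk RNA fewer cells of a type and less RNA per cell cannot be told apart.

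Total counts ran from 13715837 to 14359990 in Pd1fl/fl and from 14157027 to 24147311 in Pd1cKO-Tie2 libraries. For the targeted gene, Pdcd1, 32 reads were counted in Pd1fl/fl replicate 1 and 0 in each of the other 3 libraries, so at this depth it did not separate the genotypes. The 0 in Pd1fl/fl replicate 2 stands for a gene not listed in that library's tables, which can hide up to 4 reads. The endothelial markers were abundant in every library, with a sum between 12550 and 16980 CPM (a gene's reads scaled to a common library total), and all 10 of them were higher in both Pd1cKO-Tie2 libraries than in both controls (17.7% of all tested genes were). Sums of some other lists moved the other way. Microglial and macrophage markers lay between 1835 and 2333 CPM in the controls and between 732 and 1582 CPM in the knockout libraries. Astroglial markers lay between 857 and 862 CPM in the controls and between 413 and 566 CPM in the knockout libraries. Of the microglial and macrophage markers, 6 of 7 were lower in both knockout libraries, as were 5 of 8 astroglial and radial glial markers (18.1% of all tested genes were). Neutrophil genes summed to 906 CPM in Pd1fl/fl replicate 1 and to at most 55.3 CPM in the other 3 libraries. Erythroid markers, at 642 and 547 CPM in the controls and 572 and 1060 CPM in the knockout libraries, overlapped between genotypes. So did oligodendrocyte lineage markers, at 179 and 93.6 CPM in the controls and 189.5 and 101 CPM in the knockout libraries. Mural markers, of pericytes and smooth muscle, summed to 5508 and 3561 CPM in the controls and to 3667 and 3668 CPM in the knockout libraries. Both knockout sums lay between the controls, and in every library the mural sum was above the microglial and astroglial sums. None of the listed microglial or astroglial genes was at 0 in any library. The study's sort of brain endothelial cells used antibodies to CD31 and CD45, and a gate against CD45 would remove microglia and neutrophils. The CD45 gene Ptprc had 86.2 and 138 CPM in the controls and 54.5 and 67.8 CPM in the knockout libraries, and what these cells add to the chaperone values was not tested.

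Chaperones keep other proteins from aggregating and help them fold. HSP70 proteins (Hspa genes) bind and release short hydrophobic stretches of a client in a cycle driven by ATP, J proteins (Dnaj genes) deliver clients and trigger that ATP hydrolysis, HSP90 matures kinases and receptors, small heat shock proteins (Hspb genes) hold unfolded proteins, and HSP60 with HSP10 (Hspd1 and Hspe1) forms the folding chamber of mitochondria. Some members are made at all times, while others are switched on within minutes of heat or oxidative stress by heat shock factor 1, which binds heat shock elements in their promoters. Chaperones of the ER answer instead to the unfolded protein response.

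The heat-inducible genes were first looked at for that element. They were listed as known targets of heat shock factor 1, so a high share with the element was built into the list. A heat shock element is built of inverted repeats of a unit that reads GAA on one strand and TTC on the other, and the search was for GAANNTTC or TTCNNGAA, both ways round, in the 250 bases before the start of transcription given by RefSeq (GRCm38.p6). Of the 70 members 58 had a promoter entry. The motif stood in 7 of 8 promoters of heat-inducible genes, in 14 of 58 member promoters (24.1%) and in 14.5% of the promoters of 27025 genes. The exception was Dnajb1, and Hsp90aa1 had no entry. In the constitutive cytosolic class the motif stood in 3 of 14 promoters (21.4%), those of Dnaja4, Dnajb4 and Dnajb6. Whether these genes answer to heat was not tested. A run of 3 such units stood in the promoters of Hspd1, Hspe1 and Dnajb6 (5.17% of members) against 0.514% of all promoters. A match is only a description of the letters. The stretches below show this shared feature, read 5′ to 3′ on the gene's own strand, with the motif in capitals.
Hspd1, chr1:55088053-55088082, minus strand: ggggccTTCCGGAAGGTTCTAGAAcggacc
Hspe1, chr1:55088053-55088082, plus strand: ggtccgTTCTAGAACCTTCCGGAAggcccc
Hspa1a, chr17:34972227-34972286, minus strand: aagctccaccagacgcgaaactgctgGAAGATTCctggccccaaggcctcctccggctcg
Hspa1b, chr17:34959309-34959368, minus strand: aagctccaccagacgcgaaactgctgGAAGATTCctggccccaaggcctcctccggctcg
Hspb1, chr5:135887786-135887845, plus strand: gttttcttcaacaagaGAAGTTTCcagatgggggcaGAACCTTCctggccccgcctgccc
Dnaja1, chr4:40722333-40722362, plus strand: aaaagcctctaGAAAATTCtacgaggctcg
Hsph1, chr5:149636351-149636380, minus strand: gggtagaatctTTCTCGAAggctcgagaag

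Hspd1 and Hspe1 lie head to head on chromosome 1, so the first pair of lines is the same DNA read from either strand, with 3 overlapping matches. Hspa1a and Hspa1b are neighbours on chromosome 17, and their upstream 250 bases differ at 3 positions (98.8% identical). The shares above count each gene of both pairs separately, although the DNA is the same or nearly so. For Hspa1a, Hspa1b and Hspb1 the stretch holds no annotated exon (GENCODE M21), whereas the stretches of Hspd1, Hspe1, Dnaja1 and Hsph1 overlap annotated exon bases.

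The classical stress-switched HSP70 genes were near the limit of detection in both genotypes. Hspa1a had 10 and 47 counts in the Pd1fl/fl libraries and 0 and 21 counts in the Pd1cKO-Tie2 libraries, or 0.692, 3.30, 0 and 1.54 CPM after TMM scaling. The groups overlapped, and the log2 fold change, given throughout as Pd1cKO-Tie2 minus Pd1fl/fl, was -1.39 with a standard error (SE) of 2.24. Hspa1b had 0, 11, 0 and 0 counts in the same order and was too low to be tested. Where a table lists 0 reads, a level of up to 3 counts remains possible, a limit of 0.125 to 0.219 CPM depending on the library, and the 0 of Hspa1b in Pd1fl/fl replicate 1 is an unlisted one of up to 4 reads. The transcripts of these neighbours share most of their sequence, with 66.3% of the 50-base stretches of Hspa1a and 62.3% of those of Hspa1b also found in another gene, so reads could have been split between them or dropped. Per kilobase of unshared stretches alone Hspa1a still came to at most 3.30 CPM and Hspa1b to at most 0.732 CPM in any library.

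The other 7 heat-inducible genes had at least 371 counts in every library, and none differed by the criterion of the study's methods, a fold change of at least 2 with p of 0.05 or less. Hsp90aa1, the inducible cytosolic HSP90, had 777 and 709 CPM in the Pd1fl/fl and 743 and 795 CPM in the Pd1cKO-Tie2 libraries. The groups overlapped, with a log2 fold change of 0.05 and a 95% interval from -0.26 to 0.36. Dnaja1, a J protein that works with cytosolic HSP70, was the steadiest of them, with 556 and 522 CPM in the controls and 546 and 556 CPM in the knockout libraries. Its log2 fold change was 0.03 (SE 0.12). Dnajb1, the J protein called HSP40, had 169 and 172 CPM in the controls and 172 and 186 CPM in the knockout libraries. Both knockout values lay above both controls by a margin smaller than the gap between the knockout libraries themselves, and the log2 fold change was 0.07 (SE 0.16).

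Hspb1, the small heat shock protein HSP27 (HSP25 in the mouse), which binds unfolded proteins and actin, showed the widest gap of the 7. It had 116 and 115 CPM in the Pd1fl/fl libraries and 172 and 134 CPM in the Pd1cKO-Tie2 libraries, so that the groups did not overlap. The log2 fold change was 0.40 (SE 0.20, adjusted p = 0.876 by edgeR), short of 2-fold and with an unadjusted p above 0.05. Over the 4 fits that each drop 1 library it lay between 0.22 and 0.57. Of the 50-base stretches of Hspb1 50.1% recur in its pseudogene Hsp25-ps1 or another gene, which makes its absolute count uncertain.

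Hsph1, an HSP110 that frees ADP from HSP70, had 59.3 and 58.1 CPM in the controls and 62.8 and 51.5 CPM in the knockout libraries. The knockout values stood on either side of the controls. Hspd1 (HSP60) had 449 and 286 CPM in the controls and 358 and 327 CPM in the knockout libraries. Here the controls stood on either side, since the largest gap was between the 2 Pd1fl/fl libraries. Hspe1 (HSP10), which shares the promoter shown above, had 34.1 and 26.1 CPM in the controls and 26.1 and 31.4 CPM in the knockout libraries, again with overlap. The level of Hspd1 per kilobase of exon was 7.34 and 6.12 times that of Hspe1 in the controls and 7.67 and 5.82 times in the knockout libraries. Exons of Hspd1 and Hspe1 overlap by 112 bases on opposite strands, and the use of strand in counting was not stated.

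**Figure D1:**
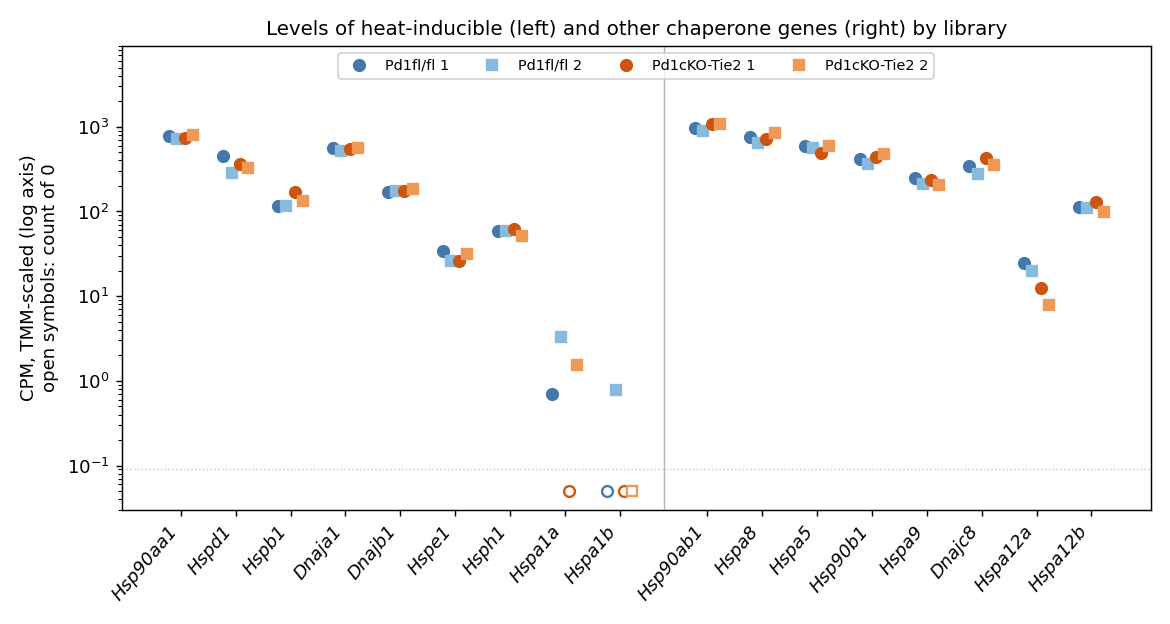
Levels in CPM (log axis) of the 9 heat-inducible genes, ordered by level per kilobase (left), and of 8 other chaperone genes (right), with 1 symbol for each library and open symbols for a count of 0. Hspa1a and Hspa1b lie at or below 3.30 CPM while the other heat-inducible genes lie at or above 26.1 CPM in every library, and only Hspb1, Dnajb1, Hsp90ab1, Dnajc8, Hsp90b1 and Hspa12a of those drawn have groups that do not overlap.

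Summed over the list, the heat-inducible genes came to 2161 and 1892 CPM in the Pd1fl/fl and 2081 and 2083 CPM in the Pd1cKO-Tie2 libraries. Both knockout sums lay between the controls. Of the 8 tested genes 4 had a log2 fold change above 0 and 4 below it, with a median of -0.002 against -0.004 over all 15909 tested genes. Without Hspa1a the median was 0.03.

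Hsp90aa1 shares 47.5% of its 50-base stretches with pseudogenes or other genes, Hspd1 42.1%, Hspe1 22.8% and Dnaja1 20.6%, which makes their levels per kilobase uncertain too.

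Of the 70 members 66 passed the filter on low counts, which asks for reads in enough libraries of either genotype, and Hspa1b, Hspa1l, Hspb3 and Dnajc5g did not. The last 3 fall outside the rule for named genes and are given to account for every member. Hspa1l, a testis HSP70, had 4, 0, 11 and 3 counts, Hspb3, a muscle small heat shock protein, 0, 14, 9 and 0 counts, and Dnajc5g 15, 0, 0 and 0 counts. By the criterion Pd1cKO-Tie2 had 0 members higher and 2 lower, Hspa12a and Dnajc5b. Dnajc5b passed the filter only through the controls, where it is high, so it had to differ. The count is 3.03% of the tested members, beside 4.02% of all tested genes (1.41% higher and 2.61% lower). After adjustment over all genes no member had an adjusted p under 0.05 (smallest 0.735), as was so for 0% of all genes, while 2 members and 1016 genes (6.39%) had an unadjusted p under 0.05 in edgeR. DESeq2 gave 0 members with an adjusted p under 0.05, the smallest being 0.428, and 114 of the 16976 genes it adjusted (0.672%). Of the members 13 were higher in both knockout libraries than in both controls (19.7%, against 17.7% of all tested genes) and 7 were lower in both (10.6%, against 18.1%). The log2 fold change was smaller than 0.5 in either direction for 52 of 66 members (78.8%), against 62.0% of all tested genes. Neither these shares nor those of all tested genes set beside single classes and lists were matched for level. At least 100 CPM was reached by 21 of 66 members, against 2128 of 15909 tested genes. Under 10 CPM lay 16 members, against 6461 genes. Over all tested genes the median absolute log2 difference between genotypes was 0.747 under 10 CPM and 0.173 at 100 CPM or more. Whether members moved less than genes of like level was not tested.

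The abundant members were bounded closely. In the 21 members of at least 100 CPM the log2 fold change ran from -0.26 to 0.40 and every 95% interval lay within -0.80 to 0.91, so a change of 2-fold or more lay outside the interval of each. Of all tested genes at that level 12 of 2128 met the criterion (0.564%). In these 21 members the median absolute difference on the log2 scale was 0.239 between the controls, 0.245 between the knockout libraries and 0.123 between the genotype means. For the 16 members under 10 CPM the same medians were 0.842, 0.895 and 0.873. Over all tested genes they were 0.204, 0.179 and 0.173 at 100 CPM or more, and 1.033, 1.008 and 0.747 under 10 CPM. A difference between means of 2 libraries varies less than one between single libraries, so the last value of each set is not a like measure.

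**Figure D2:**
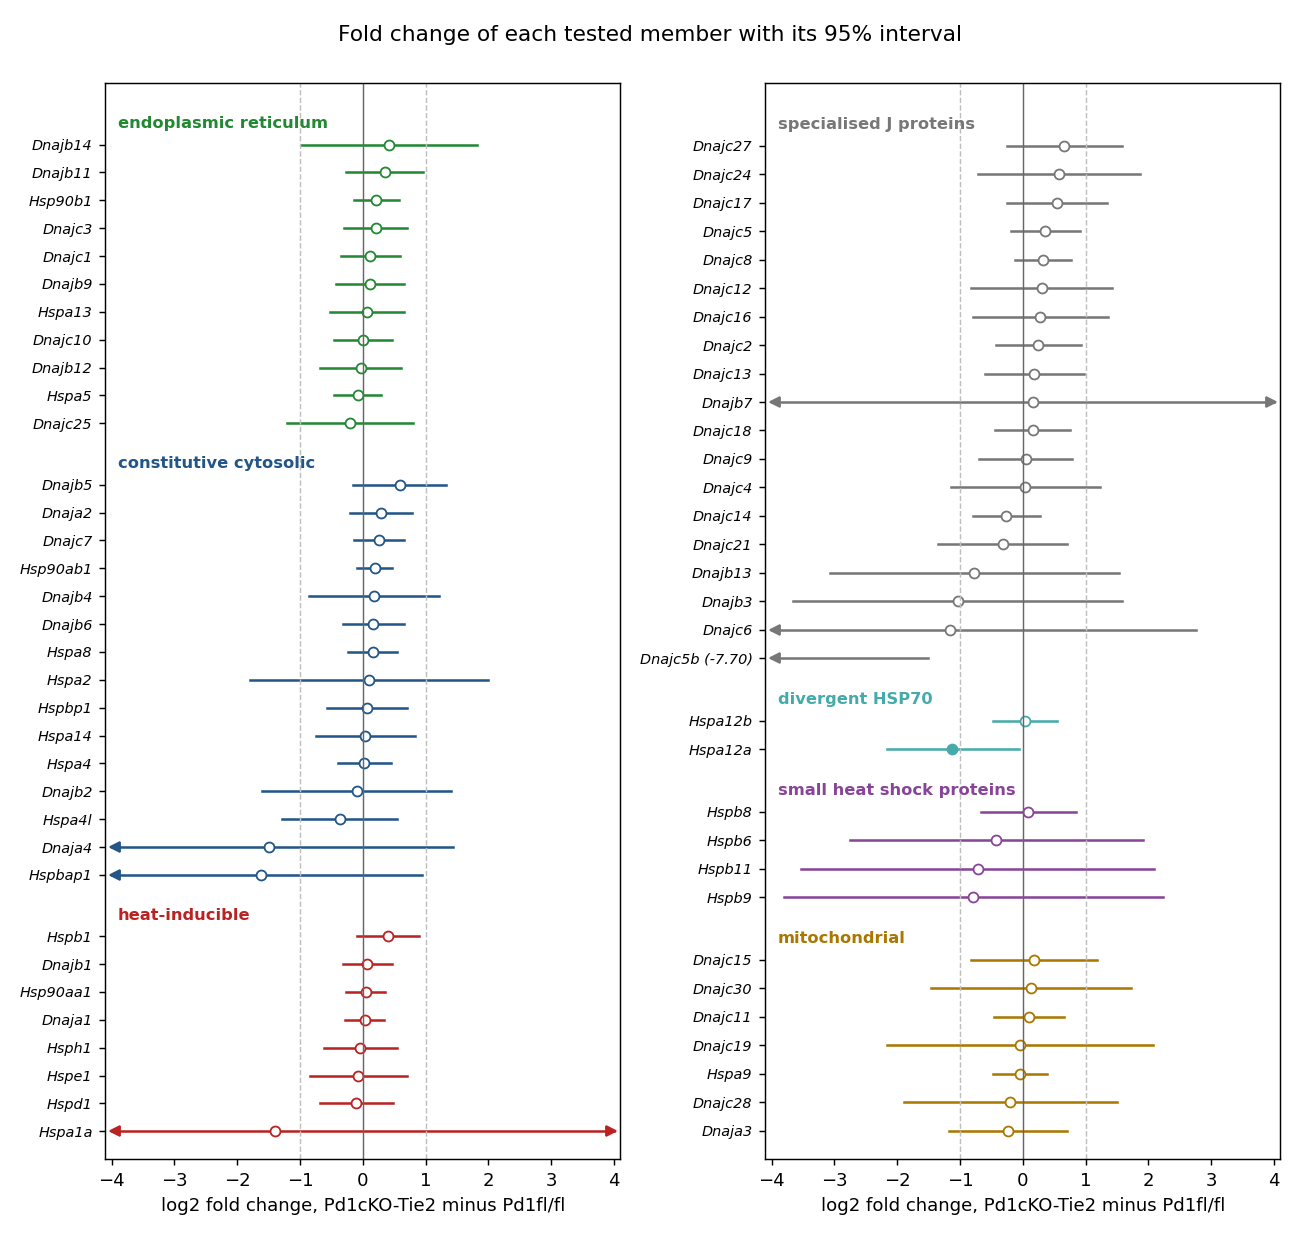
Log2 fold change (Pd1cKO-Tie2 minus Pd1fl/fl) of each of the 66 tested members by class, with lines for the 95% interval from the edgeR fit, dashed lines at a 2-fold change, filled circles for members past the criterion and arrowheads where an interval runs beyond the axis. Hspa12a is the only filled circle within the axis, and Dnajc5b, also past the criterion, has its fitted value of -7.70 beside its name since it lies beyond the axis.

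**Figure D3:**
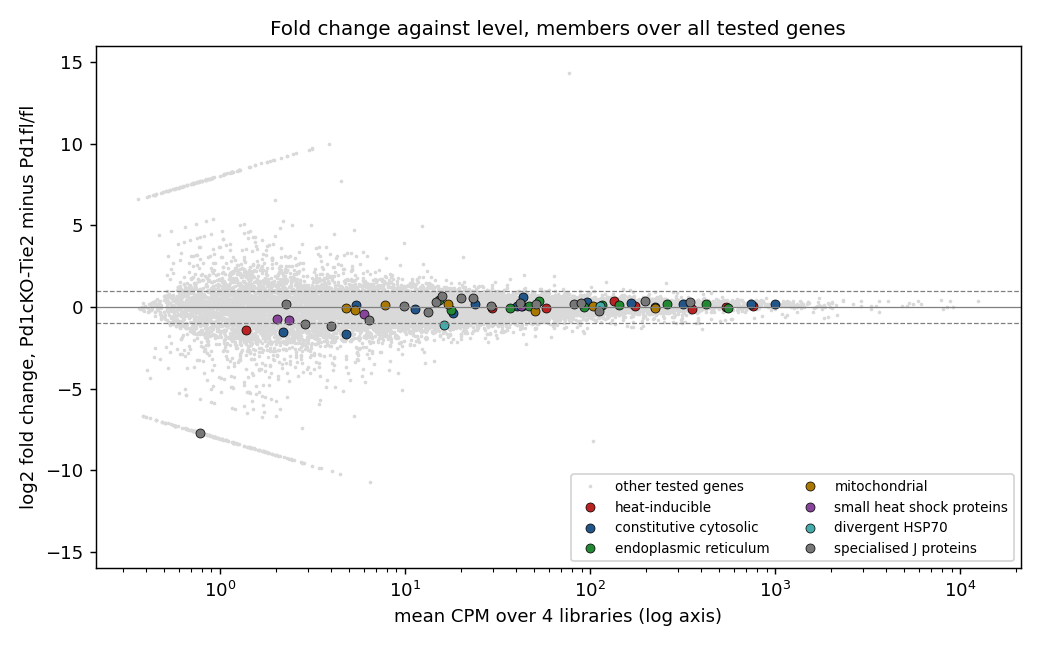
Log2 fold change (Pd1cKO-Tie2 minus Pd1fl/fl) against the mean CPM over the 4 libraries (log axis) for the 66 tested members in the colours of their classes, over all 15909 tested genes in grey, with dashed lines at a 2-fold change. The 21 members of at least 100 CPM lie between -0.26 and 0.40, and the members far from 0 lie at low levels.

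Hspa12a and Hspa12b encode divergent HSP70 proteins with a split ATPase domain, and Hspa12b is known from endothelial cells, where it takes part in angiogenesis. Hspa12b had 112 and 111 CPM in the Pd1fl/fl and 129 and 99.8 CPM in the Pd1cKO-Tie2 libraries, with overlap and a log2 fold change of 0.04 (SE 0.21). Hspa12a, on chromosome 19 (GRCm38, 58795751 to 58860984, minus strand), had 24.7 and 19.9 CPM in the Pd1fl/fl and 12.7 and 7.82 CPM in the Pd1cKO-Tie2 libraries. Both knockout libraries lay below both controls, with 22.3 ± 3.41 CPM against 10.2 ± 3.42 CPM (SD, n = 2 each). The log2 fold change was -1.12 (SE 0.43, 95% interval -2.17 to -0.06, adjusted p = 0.753 by edgeR). In fits that each drop 1 library, where the lone library of a genotype is assumed to vary like the 2 of the other, it kept its direction (-1.50 to -0.81), but met the criterion only without Pd1cKO-Tie2 replicate 1, and missed it without Pd1fl/fl replicate 1 (-0.95), Pd1fl/fl replicate 2 (-1.27) or Pd1cKO-Tie2 replicate 2 (-0.81). Hspa12a is known from neurons, and the neuronal markers summed to 864 and 1144 CPM in the controls and 974 and 872 CPM in the knockout libraries, with 1 of 8 lower in both knockout libraries. The microglial and astroglial sums given above moved in the same direction as Hspa12a, and their part in it was not tested.

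Dnajc5b encodes a relative of the cysteine string protein, a J protein of secretory vesicles, and lies on chromosome 3 (GRCm38, 19508595 to 19610862, plus strand). It had 35 and 10 counts in the Pd1fl/fl libraries and 0 counts in both Pd1cKO-Tie2 libraries (2.42 and 0.703 CPM against 0). Against the 3 counts that a count of 0 allows in each knockout library the gene was at least 9.07-fold lower from the control mean, and at least 4.08-fold lower from the lower control alone. The fitted log2 fold change of -7.70 rests on the prior count (unadjusted p below 0.05, adjusted p = 0.735 by edgeR). Leaving out either knockout library, or Pd1fl/fl replicate 2, took the gene out of the criterion by its p alone, with fitted values between -8.40 and -7.47, and without Pd1fl/fl replicate 1 too few counts remained for the gene to be tested. Pd1fl/fl replicate 1, with the higher Dnajc5b value, is also the library with the neutrophil genes, and the link was not tested. Its vesicle relative Dnajc5 had 202 and 143 CPM in the controls and 204 and 241 CPM in the knockout libraries (log2 fold change 0.36, SE 0.22), and was chosen here after its values were seen.

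The constitutive cytosolic genes had the highest summed level of the 7 classes in every library. Per kilobase of exon the order of levels in the whole set began with Hsp90ab1 at 335 CPM, the constitutive HSP90, followed by Hsp90aa1 at 192, Hspa8 at 172, Dnajc8 at 136, Hspd1 at 134, Hspa5 at 132, Hspb1 at 130 and Hsp90b1 at 106. Hsp90ab1 had 979 and 896 CPM in the controls and 1074 and 1064 CPM in the knockout libraries. Both knockout values were higher, with a log2 fold change of 0.19 (SE 0.11, 95% interval -0.09 to 0.47), which did not meet the criterion. The level of inducible Hsp90aa1 per kilobase relative to Hsp90ab1 was 0.605 and 0.604 in the controls and 0.528 and 0.570 in the knockout libraries, a description with no test that carries the unequal sharing of stretches, 47.5% for Hsp90aa1 and 3.44% for Hsp90ab1. Hspa8, the constitutive HSP70 that also uncoats clathrin vesicles, was chosen after its values were seen. It had 757 and 638 CPM in the controls and 710 and 844 CPM in the knockout libraries, with overlap, and 39.4% of its stretches recur elsewhere, mostly in pseudogenes. As a class the 16 constitutive cytosolic genes summed to 2614 and 2546 CPM in the controls and to 2804 and 2983 CPM in the knockout libraries, 1.12-fold in the mean. The median log2 fold change of the 15 tested was 0.10, and none met the criterion (against 4.02% of all tested genes).

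The larger differences in this class were at low levels or below the criterion. Dnajb5, a cytosolic J protein, had 28.5 and 41.0 CPM in the controls and 56.6 and 47.9 CPM in the knockout libraries, without overlap (log2 fold change 0.59, SE 0.30). Dnaja4 had 64 and 29 counts in the controls and 35 and 11 counts in the knockout libraries, or 4.43, 2.04, 1.46 and 0.804 CPM. Its log2 fold change of -1.50 had an SE of 1.19, and 42.7% of its stretches are shared, most of them with Wdr61 on the other strand. With 1 library left out it ranged from -1.99 to -0.84. Hspbap1, a binding partner of Hspb1, had 149, 61, 92 and 12 counts, or 10.3, 4.29, 3.84 and 0.877 CPM in the same order. Both knockout values were lower, but with a log2 fold change of -1.62 and an SE of 1.03 the interval ran from -4.17 to 0.94. Without Pd1cKO-Tie2 replicate 1 the value was -3.04 and without Pd1fl/fl replicate 1 it was -0.85.

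The chaperones of the ER overlapped between genotypes for the most part. Hspa5 (BiP), the HSP70 of the ER and the best known target of the unfolded protein response, had 591 and 558 CPM in the Pd1fl/fl and 489 and 596 CPM in the Pd1cKO-Tie2 libraries (log2 fold change -0.08, SE 0.15). Hsp90b1 (GRP94), picked once its values were known, had 421 and 367 CPM in the controls and 442 and 472 CPM in the knockout libraries, without overlap and with a log2 fold change of 0.21 (SE 0.14). Dnajb14, a J protein of the ER membrane, had 17.4, 8.79, 11.2 and 23.8 CPM, so each genotype spanned more than the difference between them (log2 fold change 0.41, SE 0.57). The 11 genes summed to 1816 and 1610 CPM in the controls and to 1682 and 1958 CPM in the knockout libraries. Their median log2 fold change was 0.12, with 3 higher in both knockout libraries (27.3%, against 17.7% of all tested genes), none lower in both (against 18.1%) and none past the criterion (against 4.02%).

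The ER stress element of these genes, searched as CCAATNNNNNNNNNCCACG on both strands of the same 250 bases, stood in 3 of 10 ER member promoters (Hspa5, Hsp90b1 and Dnajc3) and in 0.13% of all promoters. Known targets of the unfolded protein response were among these genes, so a high share was in part built into the class. The stretch of Hspa5, the member with the highest level in the class, is shown with the element in capitals.
Hspa5, chr2:34772020-34772049, plus strand: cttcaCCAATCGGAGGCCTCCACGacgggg

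In mitochondria Hspa9 (mortalin), which pulls proteins through the inner membrane, had 248 and 210 CPM in the controls and 237 and 207 CPM in the knockout libraries. The groups overlapped, as they did for every one of the 7 mitochondrial members outside the heat-inducible list. Of all tested genes 17.7% were higher and 18.1% lower in both knockout libraries, so most overlapped too. The log2 fold changes of the 7 ran from -0.23 to 0.18, with an SE of up to 0.86. Among the 5 small heat shock proteins outside that list Hspb8, which works with Bag3 in clearing aggregates, had the highest level, with 37.2 and 44.8 CPM in the controls and 35.6 and 51.7 CPM in the knockout libraries. The genotypes overlapped, with a log2 fold change of 0.09 (SE 0.30). The median of -0.57 over the 4 tested genes of this class comes from Hspb6, Hspb9 and Hspb11, chosen once their values were known. None was above 10 CPM in any library, and each had an SE of at least 0.94. Hspb11 is in the class by its symbol only.

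Of the J proteins with a specialised task Dnajc8, a splicing factor, had the highest level, with 344 and 275 CPM in the controls and 425 and 350 CPM in the knockout libraries. Its knockout values were higher than both controls, with a log2 fold change of 0.32 (SE 0.18). Dnajc27, a small GTPase with a J domain, had the largest log2 fold change above 0 of all members, with 11.98 and 12.7 CPM in the controls and 21.1 and 18.1 CPM in the knockout libraries. The groups stood apart, but the value of 0.66 (SE 0.37) did not meet the criterion. Dnajc17, another splicing-linked J protein, had 18.3, 19.4, 24.7 and 30.4 CPM and a log2 fold change of 0.55 (SE 0.32). Dnajc24, which serves diphthamide synthesis, had 9.07, 23.1, 21.1 and 26.7 CPM, and its control libraries alone differed by more than the genotypes did.

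The 3 members with the widest spread between libraries of one genotype had values that turned on a single library. Dnajc6 (auxilin), the neuronal J protein that uncoats clathrin vesicles, had 66 and 93 counts in the controls and 116 and 1 counts in the knockout libraries, and its log2 fold change of -1.16 (SE 1.59) became -0.19 without Pd1cKO-Tie2 replicate 2 and -6.08 without Pd1cKO-Tie2 replicate 1. Dnajb7, a testis J protein, had 0 and 61 counts in the controls and 64 and 29 counts in the knockout libraries, and its value of 0.16 (SE 2.02) became 8.38 without Pd1fl/fl replicate 2 and -0.83 without Pd1fl/fl replicate 1. The third was Hspa1a, whose value of -1.39 became 0.14 without Pd1fl/fl replicate 2 and -8.13 without Pd1cKO-Tie2 replicate 2. The values of -6.08, 8.38 and -8.13 are fitted against counts of 0 or 1 and are no bounds. Among members chosen once their values were known, Hspb6 (-2.07 to 0.33) and Dnajb13 (-1.74 to 0.46) also changed sign with a library left out.

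Over the whole set the members took 0.835% and 0.780% of the counts in the controls and 0.820% and 0.849% in the knockout libraries, or 8300, 7517, 8269 and 8785 CPM after scaling. The groups overlapped. The median log2 fold change of the 66 tested members was 0.06, of the 58 tested members outside the heat-inducible list 0.08, and of all tested genes -0.004. At its bound Dnajc5b is still the lowest member, so the median over the 66 is 0.06 with it by construction.

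The genes around the chaperones lay on both sides of the controls. Hsf1, the main activator of heat shock genes, had 34.1 and 35.7 CPM in the controls and 49.0 and 64.5 CPM in the knockout libraries. The groups did not overlap, and the log2 fold change was 0.70 (SE 0.27, unadjusted p below 0.05, adjusted p = 0.753 by edgeR), which is below a 2-fold change. Hsf2, a second factor of the family, had 27.6 and 37.5 CPM in the controls and 20.8 and 24.6 CPM in the knockout libraries, lower in both, with a log2 fold change of -0.52 (SE 0.32). Of the 20 co-chaperones of HSP70 and HSP90 8 were higher in both knockout libraries (40%, against 17.7% of all tested genes). In both knockout libraries 3 were lower (15%, against 18.1%). Their median was 0.08. By the criterion none was higher (against 1.41% of all tested genes) and 1 of the 20 was lower (against 2.61%). That gene was Fkbp5, an HSP90 partner of the glucocorticoid receptor and a glucocorticoid target, with 33.1 and 60.2 CPM in the controls and 14.3 and 26.3 CPM in the knockout libraries (log2 fold change -1.20, SE 0.46, adjusted p = 0.753 by edgeR). It missed the criterion without Pd1fl/fl replicate 2 (-0.71) or Pd1cKO-Tie2 replicate 1 (-0.82). Bag3, a stress-inducible nucleotide exchange factor of HSP70, had 27.6 and 18.4 CPM in the controls and 13.0 and 9.58 CPM in the knockout libraries. Both knockout values were lower. With a log2 fold change of -1.02 (SE 0.42) Bag3 just missed the criterion, at an unadjusted p slightly above 0.05 in edgeR. With 1 library left out its value lay between -1.28 and -0.70.

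Of the 8 subunits of the chaperonin TRiC, which folds actin and tubulin, and of 9 other stress chaperones and ubiquitin genes none met the criterion, with medians of 0.07 and 0.21. Of the 15 genes of the unfolded protein response none met it either, and 5 were lower (33.3%, against 18.1% of all tested genes) and 2 higher (13.3%, against 17.7%) in both knockout libraries, with a median of -0.13. Over the 55 tested genes of these pathway lists, heat shock factors and co-chaperones included, 1 met the criterion, beside 4.02% of all tested genes.

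The immediate early genes, which answer to growth factors and to stress through other factors than heat shock factor 1, lay for the most part below the controls in Pd1cKO-Tie2. Of 12 tested 9 were lower in both knockout libraries (75.0%, against 18.1% of all tested genes), none was higher in both (against 17.7%) and none met the criterion (against 4.02%), with a median log2 fold change of -0.52. Their sum was 8406 and 11930 CPM in the Pd1fl/fl and 6984 and 8045 CPM in the Pd1cKO-Tie2 libraries, so that Pd1fl/fl replicate 2 stood above the other 3, whereas the heat-inducible sum was lowest in that library. The difference between these lists was not tested. Among the immediate early genes Fosb alone had an adjusted p under 0.05 in DESeq2 (0.0194), as had 0.672% of the genes it adjusted. Its log2 fold change in edgeR was -0.94 (SE 0.22).

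**Figure D4:**
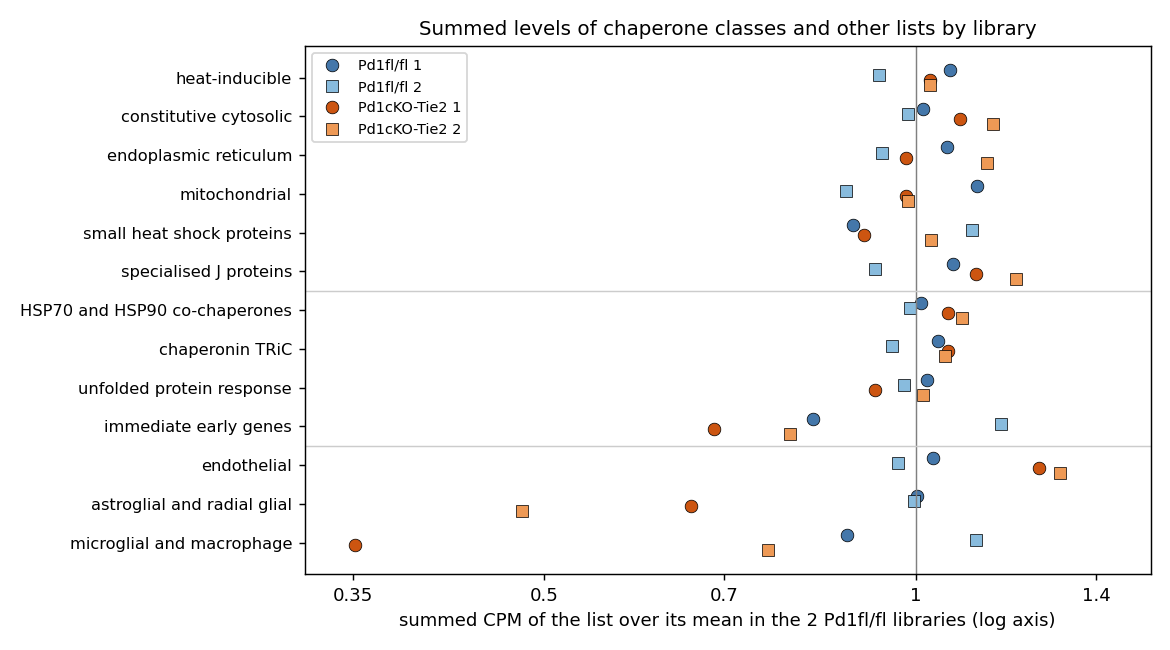
Summed CPM of 6 chaperone classes (top), 4 pathway lists (middle) and 3 marker lists (bottom) in each library, divided by the mean of the 2 Pd1fl/fl libraries (log axis), with 1 symbol for each library. In 4 of the 6 chaperone classes the genotypes overlap, while the constitutive cytosolic class, the specialised J proteins, the co-chaperones, TRiC and the endothelial markers lie higher, and the immediate early, astroglial and microglial sums lie lower, in both Pd1cKO-Tie2 libraries than in both controls.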

How the data were processed

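RNA of P0 brain endothelial cells was sequenced on an Illumina platform. The submitters' processing notes name Bowtie2 2.2.3, TopHat2 2.0.12, HTSeq 0.6.0 and mm9, but 90.0% of the gene positions equal GENCODE M21 (GRCm38), those of 62 of the 70 members included. The strand setting is not given in the sources used here. The authors deposited 4 pairwise tables with counts of whole reads per gene, not normalized. Their deposited CPM columns, scaled by the authors to the library total, served only to recover the totals, and the p-values and fold changes of the authors' own comparisons in the deposited tables were not used. Genes not listed for a library (up to 4 reads) were set to 0, and 10 broken lines were skipped. One Pd1cKO-Tie2 column (number 2) matches no sample title by its number and stands for a library of its group only.

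The test was edgeR 4.0.16's quasi-likelihood F test (R 4.3.3, filterByExpr, TMM, genotype only) on 15909 genes, with Benjamini-Hochberg adjustment over all of them and a common biological coefficient of variation of 0.61. CPM are TMM-scaled. Alternatives used DESeq2 1.42.0, limma-voom (limma 3.58.1), other filters and scalings, and each library left out, which leaves 1 genotype with a single library whose spread is taken from the other. The scripts were tested on simulated data. Intervals and floors cover counting error or the spread of 2 libraries only. Members and lists were chosen with earlier results of these data known. Genes named are the heat-inducible list, members past the criterion, the 5 largest rises and falls, the highest level of each class and the 3 widest spreads within a genotype. Other members are marked.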

Additional observations from a re-analysis of the deposited data

How the results depend on the processing

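The 2 members past the criterion became 1 under DESeq2 (Dnajc5b), limma-voom and when genes had to hold 10 counts in all libraries (Hspa12a in both), and 0 to 2 with a library left out, with 2 under the other scalings and with no filter. Those counts were 0 without Pd1fl/fl replicate 1 or Pd1cKO-Tie2 replicate 2. Without Pd1fl/fl replicate 2 the members called were Dnajc24 and Dnajb7, both higher, and without Pd1cKO-Tie2 replicate 1 they were Hspa12a and Dnajc6. Dnajc5b was at -5.62 in limma-voom and Hspa12a at -1.12 in DESeq2, both with a p above 0.05. The cause was not tested. The median of the heat-inducible genes lay between -0.011 and 0.102 with a library left out and was 0.033 without Hspa1a and Hspa1b, an alternative chosen after seeing the data. The median of all tested members was -0.002 with library size scaling, which moves the median of all genes to -0.065, and 0.000 to 0.068 with a library left out.

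Of 270 values of the 25 named members 240 kept their direction and side of the criterion, 8 lost the criterion, 3 gained it and 19 changed sign, in 12 members, none of them past the criterion in the fit reported. With library size scaling Dnaja1 was at -0.027, Hsp90aa1 at -0.010 and Hspa12b at -0.021. With a library left out Dnaja1 ranged from -0.010 to 0.084, Dnajb14 from -0.22 to 0.99, Dnajb7 from -0.83 to 8.38, Hsp90aa1 from -0.011 to 0.12, Hspa12b from -0.15 to 0.21, Hspa1a from -8.13 to 0.14, Hspa5 from -0.23 to 0.064, Hspa9 from -0.16 to 0.081, Hspb8 from -0.20 to 0.34, Hspd1 from -0.39 to 0.26, Hspe1 from -0.25 to 0.14 and Hsph1 from -0.18 to 0.10.

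No paired analysis was possible because the sample titles of the 2 genotypes share only the number 1, and the knockout column numbered 2 has no title of that number, so its number pairs nothing. With 2 libraries per genotype, the smallest difference detectable at each level was not tested. The criterion passes no difference under 2-fold at any level. For the 16 tested members with a mean under 10 CPM the median SE was 1.05. Among them Hspbap1 (log2 fold change -1.62), Dnaja4 (-1.50), Hspa1a (-1.39), Dnajc6 (-1.16) and Dnajb3 (-1.04) were past 2-fold without meeting the criterion. Dnajc5b (-7.70) met it. Dnajb3 falls outside the rule for named genes.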
